A study of Bos taurus and Sus scrofa with 10 samples.

Results

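The genes described here encode the TATA-binding protein family and the oocyte-enriched and core parts of the complex around it. The 9 symbols are TBP, TBPL1, TBPL2, TAF3, TAF4, TAF4B, TAF7, GTF2A1 and GTF2B, chosen by name from the table of each species. The cow table of 22845 rows gave 8 of them (TBP was not analysed here in cow), and the pig table of 21867 rows gave 8 (TAF4 was not analysed here in pig), so that 7 were compared in both species. No symbol had more than 1 row. RNA was sequenced from bovine (Bos taurus) and porcine (Sus scrofa) oocytes, called cow and pig below, and from embryos at the 2-4 cell, 8-16 cell, morula and blastocyst stages. The labels give neither a treatment nor a genotype, and they do not state how the embryos were produced or how many entered a library. Each of the 10 groups had 1 library, so stage differences could not be set against replicate spread, and no p-value is given.

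RNA polymerase II starts transcription on a platform of general factors. TFIID, which holds TBP and a set of TBP-associated factors (TAFs), recognises the core promoter, TFIIA steadies TBP on the DNA, and TFIIB links TBP to the polymerase. Vertebrates have additional TBP-like proteins. TBPL2 replaces TBP in growing mouse oocytes, where it works together with TFIIA, and TBPL1 is needed for sperm formation in mice. TAF4B is a TAF4 paralog enriched in ovary and testis and is required for normal follicles in mice. After fertilisation the embryo first lives on RNA stored in the egg and then activates its own genome.

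Levels are given as RPM (reads of a gene among 1000000 sequenced reads), which can be compared between the stages of a species but not between genes of different length. Read totals ranged from 3002751 in the pig morula library to 14182046 in the cow blastocyst library. Ranges in parentheses after a level are 95% Wilson intervals, and ranges after a fold are exact 95% intervals from the read counts. All of them cover counting error only, since amplified reads without molecular identifiers are not independent molecules. A library with 0 reads of a gene allows up to 3 reads, a floor of 0.212 to 0.999 RPM depending on the library. A change is the difference of log2(RPM + 1) between 2 libraries, with 0 reads entered as 0.9 of a read, which understates changes of low genes. The words "rose" and "fell" are kept for changes of 2 or more in size (4-fold on that scale). RPM is a share of all RNA sequenced, so fewer transcripts per embryo and more RNA of other genes cannot be told apart.

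The summed levels of stage markers went the way the labels give. The summed level of 15 oocyte markers in cow went from 8233 RPM in the oocyte to 5.01 in the blastocyst, and that of 13 in pig from 9301 to 39.7 RPM. Blastocyst markers (14 in each species) summed to 162 and 3989 RPM in the same cow libraries and to 47.7 and 8943 RPM in the pig ones, although ATP1B1 on that list fell in cow from 104.9 to 5.99 RPM. Markers of cumulus cells, the somatic companions of the oocyte, summed to 559 RPM over 21 genes in the cow oocyte library, with 8 genes at 0 reads. STAR (157 RPM), HAS2 (141 RPM), VCAN (116 RPM) and PTGS2 (91.3 RPM) led them, and AMH, INHA and NR5A1 were among those at 0 reads, as were FST and FOXL2, which had 0 reads in all 5 cow libraries. In the pig oocyte library they summed to 179 RPM over 16 genes, with 7 at 0 reads. In the blastocyst libraries the cumulus sums were 1083 RPM in cow and 2172 in pig, of which PTGS2 alone made 902 and 1809 RPM. Their part in the changes below was not tested. The mitochondrial share of reads went from 4.402% to 30.2% between the cow oocyte and blastocyst libraries and from 6.06% to 18.6% in pig, which lowers the RPM of all other genes. Scaling to non-mitochondrial gene reads moved the median change of all genes from 0.18 to 0.59 in cow and from 0.43 to 0.54 in pig.

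**Figure D1:**
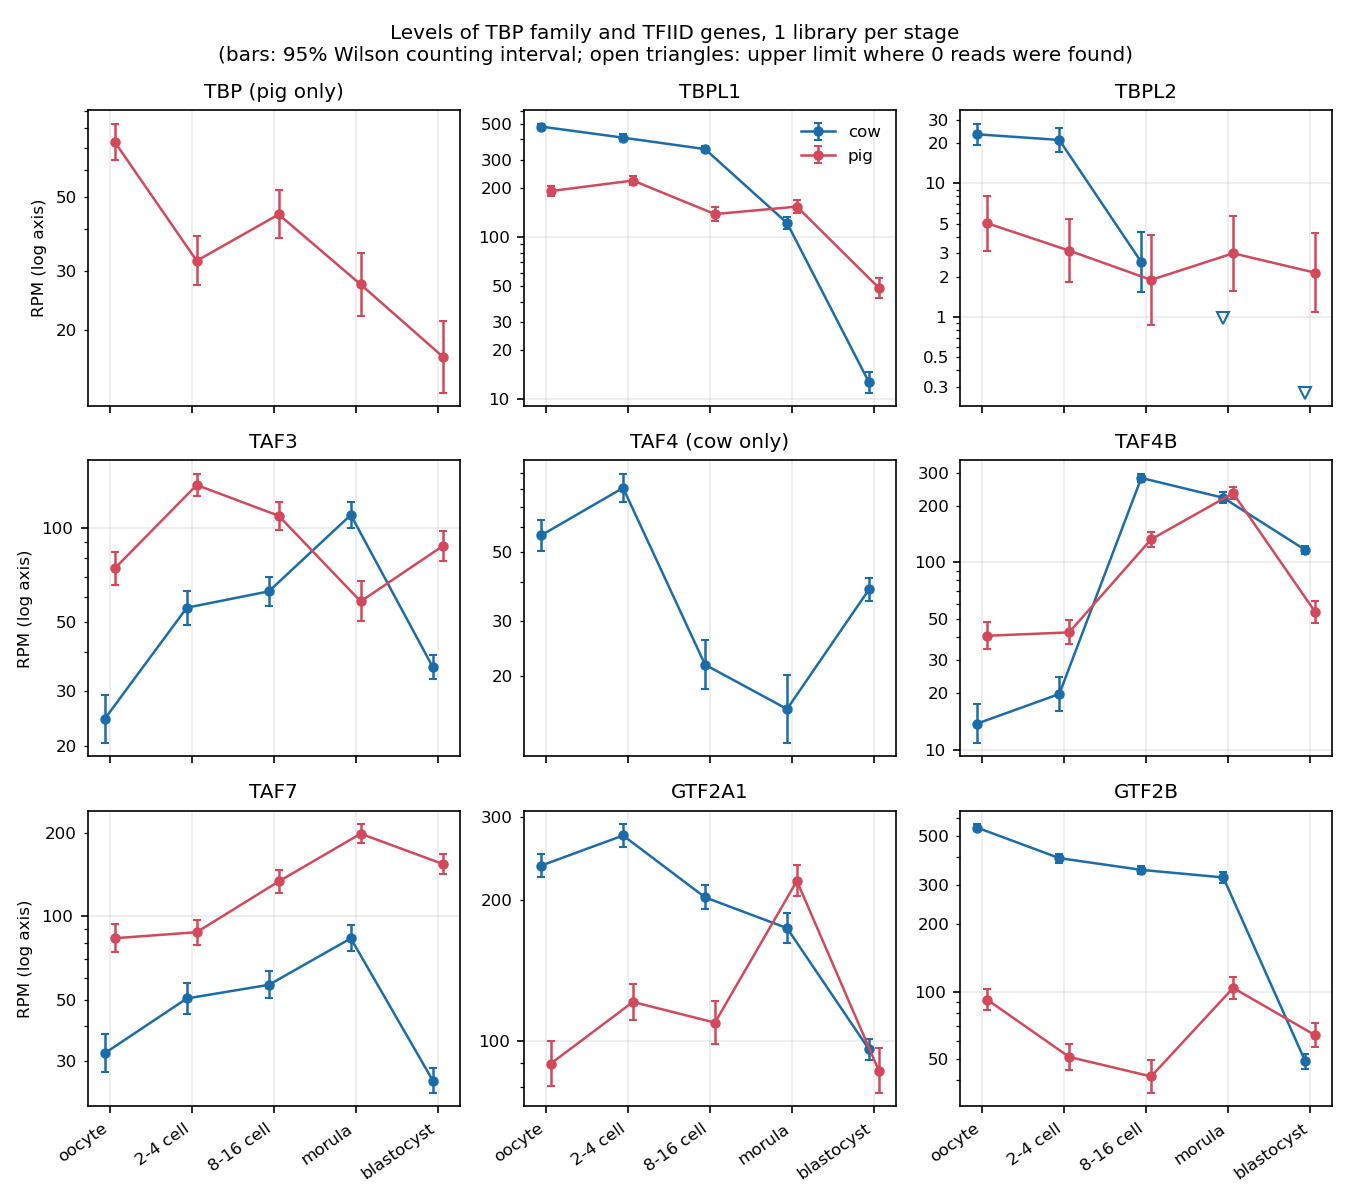
Levels of the 9 genes in each library, in RPM on a log axis, against stage, with 1 point per library, cow in blue and pig in red. Bars are 95% Wilson counting intervals and open triangles mark the upper Wilson limit where 0 reads were found; levels are to be read within a species. Cow TBPL2 has 0 reads from the morula on, cow TBPL1 and GTF2B are lowest in the blastocyst library, and TAF4B is highest at the 8-16 cell stage in cow (282 RPM) and in the morula library in pig (234 RPM).

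TBPL2, the oocyte form of TBP in mice, was detected in the cow oocyte and in early cow embryos and had 0 reads from the morula on. Its gene spans chromosome 10, 68112228 to 68138989 on the minus strand, in the cow table (build UMD3.1; pig coordinates below are on Sscrofa11.1). Its level was 23.3 RPM in the cow oocyte library (19.4 to 28.0, 115 reads), 21.2 in 2-4 cell embryos (17.3 to 25.9, 94 reads) and 2.58 in 8-16 cell embryos (1.54 to 4.33, 14 reads). The cow morula and blastocyst libraries had 0 reads, which allows up to 0.769 and 0.212 RPM. The oocyte and 2-4 cell libraries were thus high, with overlapping intervals, and the 3 later ones were low. From the 2-4 cell to the 8-16 cell stage TBPL2 fell 8.22-fold (4.66 to 15.6), a change of -2.63, which was -1.79 with a pseudocount of 5 RPM. Against the oocyte library the morula level was at least 30.3-fold lower and the blastocyst level at least 110-fold lower.

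In pig TBPL2 (chromosome 1, 184744870 to 184791550, minus strand) gave few reads at any stage. The level was 5.03 RPM in the oocyte (3.14 to 8.06, 17 reads), 3.14 in 2-4 cell embryos (13 reads), 1.90 in 8-16 cell embryos (6 reads), 2.997 in the morula (9 reads) and 2.14 in the blastocyst (1.09 to 4.23, 8 reads). Intervals of all neighbours in this order overlapped. The oocyte level was 2.35 times that of the blastocyst library, with an interval of 0.960 to 6.28 that includes no difference. Declines of more than 6.28-fold, among them one of the size seen in cow, lie outside that interval. Declines within it could not be told from no difference at this depth. A U4 gene within the pig TBPL2 span had 0 reads in all 5 pig libraries.

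TBPL1, the TBP-like factor known from male germ cells, fell late and far in cow. Its cow level (chromosome 9, 73110608 to 73149994) was 479 RPM in the oocyte, 409 in 2-4 cell embryos, 348 in 8-16 cell embryos, 122 in the morula (111 to 133) and 12.7 in the blastocyst (10.97 to 14.7). Every step was downward, with no overlap between neighbouring intervals, except that the change between 2-4 cell and 8-16 cell embryos was 0.12 with median-of-ratios scaling. TBPL1 fell 37.7-fold (32.4 to 44.2) from the cow oocyte to the blastocyst library, a change of -5.13 that placed it lower than 98.0% of the 12738 genes compared. The last step alone was 9.60-fold (8.07 to 11.5), a change of -3.17.

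In pig the same gene (chromosome 1, 29899850 to 29936744) was at 192 RPM in the oocyte, 223 in 2-4 cell embryos, 138 in 8-16 cell embryos, 154 in the morula and 48.5 in the blastocyst (41.95 to 56.1). The blastocyst library stood far below the rest. The 8-16 cell and morula intervals overlapped each other and lay below those of the oocyte and 2-4 cell libraries. The oocyte level was 3.95 times the blastocyst level (3.35 to 4.69), a change of -1.96 that misses the size for a call, and passed it with median-of-ratios scaling (-2.098). From the 2-4 cell embryos, its highest pig library, to the blastocyst TBPL1 fell 4.59-fold (3.91 to 5.41), a change of -2.18, where 17.6% of all pig genes fell. The end of pig TBPL1 overlaps SLC2A12 on the other strand, which went from 118 RPM in the oocyte library to 7.24 RPM in the blastocyst library, and how reads of overlapping genes were assigned is not given in the sources used here.

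TBP itself, the TATA-binding subunit of TFIID, was measured in pig (chromosome 1, 3472 to 18696). It was highest in the oocyte, at 72.8 RPM (64.3 to 82.5), and stood at 32.1 in 2-4 cell embryos, 44.2 in 8-16 cell embryos, 27.3 in the morula and 16.6 in the blastocyst (13.0 to 21.3). The 2-4 cell, 8-16 cell and morula libraries lay between these ends, and neighbours among them in the order of levels had overlapping intervals. Pig TBP fell 4.38-fold (3.30 to 5.89) from oocyte to blastocyst, a change of -2.07. That change was just past the size for a call and was -1.95 after scaling to non-mitochondrial gene reads and -1.85 with a pseudocount of 5 RPM.

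TAF4B, the gonad-enriched TAF4 paralog of TFIID, was higher in the later embryos than in the oocyte, with the widest rise in cow. In cow (chromosome 24, 30850955 to 30957456) its level was 13.8 RPM in the oocyte (10.9 to 17.5), 19.8 in 2-4 cell embryos (16.1 to 24.4), 282 in 8-16 cell embryos (268 to 296), 221 in the morula and 116 in the blastocyst (111 to 122). The oocyte and 2-4 cell libraries were low and the 3 later ones high. TAF4B rose 14.2-fold (11.5 to 17.8) from the 2-4 cell to the 8-16 cell stage, a change of 3.76 that was larger than that of 96.6% of the 12405 genes compared. It was still 8.44-fold above the oocyte level (6.62 to 10.9) in the blastocyst library.

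Pig TAF4B (chromosome 6, 110855587 to 110972790) was at 40.6 RPM in the oocyte (34.3 to 47.9), 42.3 in 2-4 cell embryos, 133 in 8-16 cell embryos (121 to 146), 234 in the morula (217 to 252) and 54.4 in the blastocyst (47.4 to 62.4). The increase was spread over 2 steps, of 3.14-fold (2.62 to 3.76) and 1.76-fold (1.56 to 1.99), neither of which alone reached the size for a call. Between the pig oocyte and morula libraries TAF4B rose 5.76-fold (4.79 to 6.97), a change of 2.50, as 20.5% of all pig genes rose. It then fell 4.30-fold (3.67 to 5.05) to the blastocyst library, a change of -2.08, or -1.998 with median-of-ratios scaling. The highest library was therefore the 8-16 cell stage in cow and the morula in pig, and the low oocyte and 2-4 cell levels had overlapping intervals in both species.

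TAF4, the widely expressed TFIID scaffold that TAF4B can replace, was measured in cow (chromosome 13, 55627852 to 55655516). It was at 56.6 RPM in the oocyte (50.3 to 63.6), 80.4 in 2-4 cell embryos, 21.7 in 8-16 cell embryos, 15.6 in the morula (12.2 to 20.1) and 37.9 in the blastocyst (34.9 to 41.3). Its low stages were thus the high stages of TAF4B. None of its consecutive changes was called. The widest was -1.84 from the 2-4 cell to the 8-16 cell stage, a 3.70-fold difference (2.999 to 4.60). Over both steps, from the 2-4 cell embryos to the morula, cow TAF4 fell 5.14-fold (3.91 to 6.86), a change of -2.29, where 18.8% of all cow genes fell.

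TAF3, the subunit that reads a histone mark of active promoters, had its highest library at different stages in the 2 species. In cow (chromosome 13, 16043506 to 16163986) it was at 24.5 RPM in the oocyte (20.5 to 29.3), 55.6 in 2-4 cell embryos, 62.8 in 8-16 cell embryos, 110.3 in the morula (100.3 to 121) and 35.9 in the blastocyst. In pig (chromosome 10, 63422188 to 63577118) it was at 74.3 RPM in the oocyte, 137 in 2-4 cell embryos (127 to 149), 109.6 in 8-16 cell embryos, 58.3 in the morula (50.3 to 67.6) and 87.7 in the blastocyst. The morula was thus the highest library in cow and the lowest in pig. Cow TAF3 rose 4.49-fold (3.66 to 5.54) from the oocyte to the morula library, a change of 2.12, as 18.4% of all cow genes rose between these libraries. That change was 1.96 with a pseudocount of 5 RPM and 1.996 with median-of-ratios scaling. None of the consecutive changes of TAF3 reached 2 in either species, and the difference between species was not tested.

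TAF7, which binds TAF1 and restrains its enzymatic activity, peaked in the morula library in both species. Its cow level (chromosome 7, 54080964 to 54083194) was 32.0 RPM in the oocyte, 50.5 in 2-4 cell embryos, 56.5 in 8-16 cell embryos, 83.1 in the morula (74.5 to 92.6) and 25.5 in the blastocyst (23.0 to 28.3). In pig (chromosome 2, 142947380 to 142952518) it was at 83.2 RPM in the oocyte, then 87.5, 133 and 198 RPM (183 to 215) up to the morula and 154 in the blastocyst. In cow the oocyte level was 1.26 times the blastocyst level (1.03 to 1.52), whereas in pig the blastocyst level was 1.85 times the oocyte level (1.60 to 2.14). No change of TAF7 between consecutive stages was called.

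GTF2B encodes TFIIB, the factor that recruits the polymerase to promoter-bound TBP. In cow (chromosome 3, 55179369 to 55210377) it was at 542 RPM in the oocyte (522 to 563), 396 in 2-4 cell embryos, 351 in 8-16 cell embryos, 325 in the morula and 48.7 in the blastocyst (45.2 to 52.5). The 4 earlier libraries were high and the blastocyst library low: GTF2B fell 6.66-fold (6.07 to 7.32) at the last step, a change of -2.71, and 11.13-fold (10.2 to 12.1) from the oocyte. In pig (chromosome 4, 127522819 to 127559597) it was at 92.1, 51.0, 41.7, 103.9 and 63.8 RPM in the order of the stages, with the morula and oocyte libraries highest and their intervals overlapping. The pig oocyte level was 1.44 times the blastocyst level (1.21 to 1.72), a change of -0.52.

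GTF2A1, the precursor of the large TFIIA subunits, kept within the narrowest range of the 8 cow genes. Its cow level (chromosome 10, 93617616 to 93677055) was 237 RPM in the oocyte, 274 in 2-4 cell embryos, 202 in 8-16 cell embryos, 174 in the morula and 96.1 in the blastocyst (91.1 to 101). In pig (chromosome 7, 103963245 to 104009302) the levels were 89.7, 121, 109.6, 219 and 86.6 RPM in the same order, with a single high library at the morula (203 to 237). From oocyte to blastocyst the change was -1.29 in cow, and -0.05 in pig with overlapping intervals, a ratio of 0.965 (0.823 to 1.13); the pig change was 0.06 after scaling to non-mitochondrial gene reads and 0.00488 after quantile normalisation.

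**Figure D2:**
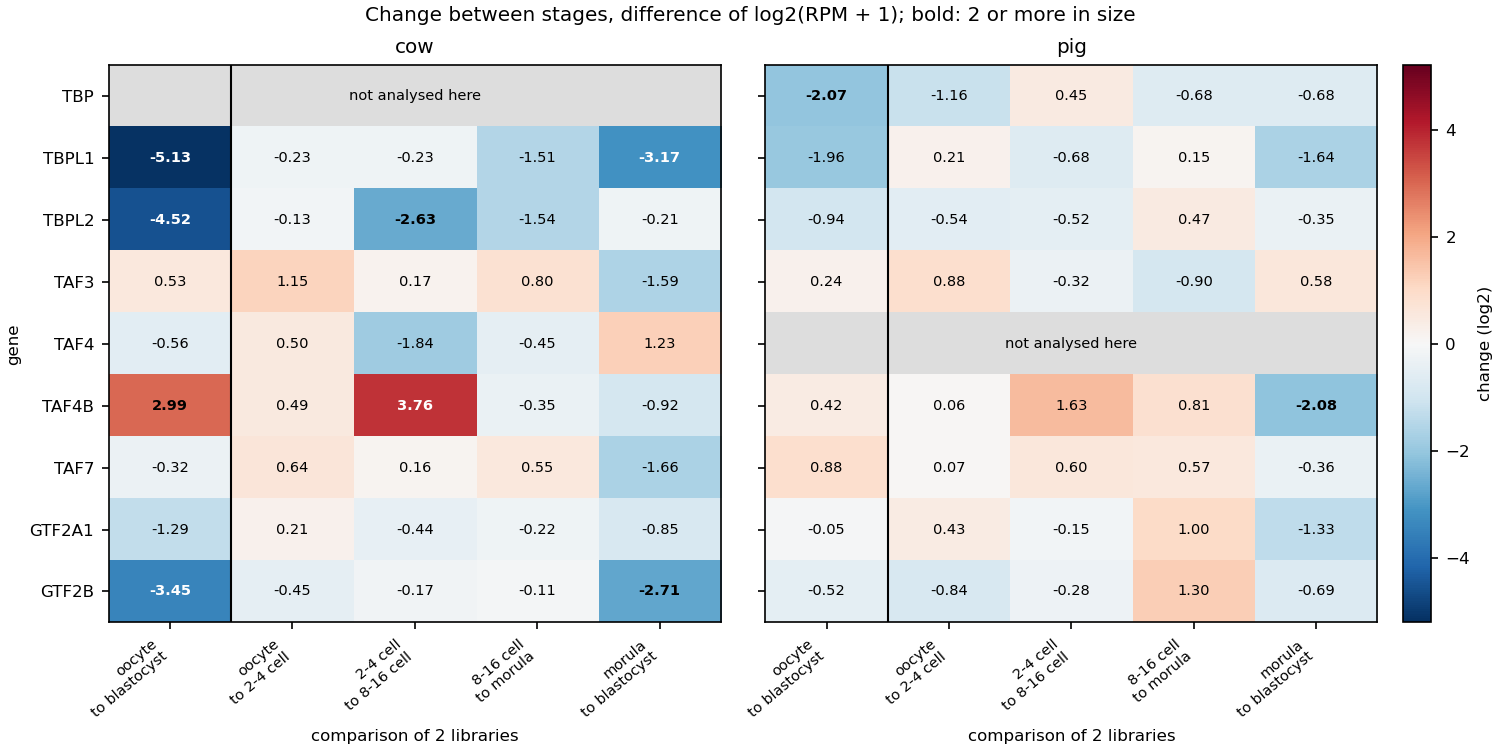
Changes of the 9 genes (rows) in each comparison of 2 libraries (columns) as differences of log2(RPM + 1), cow on the left and pig on the right, with changes of 2 or more in size in bold; the last value of cow TBPL2 has 0 reads in both libraries and is no measured change. In cow the bold changes are those of TBPL1, TBPL2, TAF4B and GTF2B, with the 2-4 cell to 8-16 cell step and the step to the blastocyst holding 2 each; in pig they are those of TBP over the whole course and of TAF4B at the last step.

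Counted over the whole course, 4 of 8 genes changed by 2 or more from oocyte to blastocyst in cow, where 40.2% of all genes compared did so. TAF4B was the 1 higher gene (21.8% of all genes) and TBPL1, TBPL2 and GTF2B were the 3 lower ones (18.4%). In pig 1 of 8 changed against 45.2% of all pig genes. This was TBP, on the lower side (19.2%), and 0 of 8 passed after scaling to non-mitochondrial gene reads or with a pseudocount of 5 RPM. The cow share was near that of all genes. The median change of the 8 genes was -0.93 in cow and -0.29 in pig, where the medians of all genes were 0.18 and 0.43.

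At the first step, from the oocyte to the 2-4 cell stage, 0 of 8 changed by 2 or more in either species, where 0.374% of all genes did in cow and 5.43% in pig. The step to the 8-16 cell stage changed 2 of 8 in cow (27.2% of all genes), TAF4B upward (12.6%) and TBPL2 downward (14.6%), and 0 of 8 in pig (4.87%). From there to the morula 0 of 8 changed in cow (11.8%) and 0 of 8 in pig, although 23.3% of all pig genes changed there. At the last step 2 of 7 compared genes changed in cow (23.4%), TBPL1 and GTF2B, both lower (11.5%). In pig 1 of 8 changed (27.6%), TAF4B, which was lower (13.8%).

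Ranges over the 5 stages were compared with those of other genes. The distance between the highest and lowest stage of a gene was 1.06 to 2.50 in pig for all 8 genes, below the median of 3.07 over 9722 pig genes with at least 10 RPM in a library. TBPL2 stayed below 10 RPM in all pig libraries, which limits its range. In cow TAF7, GTF2A1, TAF3 and TAF4 had ranges of 1.503 to 2.29, below the cow median of 2.96 over 9499 genes, and TBPL1 (5.13), TBPL2 (4.52, with 0 reads at its lowest), TAF4B (4.26) and GTF2B (3.45) had wider ones.

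Directions were set side by side for the 7 genes measured in both species. From oocyte to blastocyst 6 of 7 had the same sign in cow and pig (TBPL1, TBPL2, TAF3, TAF4B, GTF2A1 and GTF2B), against 68.4% of 8567 shared symbols, and the count was 5 to 6 over 3 other scalings. GTF2A1 had opposite signs after scaling to non-mitochondrial gene reads and after quantile normalisation, and TAF7 shared its sign after the former. The same count was 6 of 7 at the first step (45.0% of 7424 symbols). It was also 6 of 7 at the step to the 8-16 cell stage (52.5% of 8196). At the last step it was 5 of 6 compared (64.4% of 8483). With median-of-ratios scaling it was 5 of 7 at the first step (47.8% of symbols). At the step to the 8-16 cell stage it was 4 of 7 with that scaling (56.5%). Scaling to non-mitochondrial gene reads gave 5 of 7 there (53.3%). Cow GTF2B changed sign at that step with both scalings, and cow TBPL1 with the former. Between the 8-16 cell stage and the morula only TAF7 had the same sign, 1 of 7 against 56.4% of 8420 symbols, and TBPL1 joined it with median-of-ratios scaling and with quantile normalisation. The changes at that step lay between -1.54 and 0.80 in cow and between -0.90 and 1.30 in pig, and none was called.

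Several of these genes belong to pairs of paralogs, and the ratio within a pair can be followed over the stages without a correction for gene length. Ratios here and below are of (RPM + 1), which shifts those of low genes. The ratio of TAF4B to TAF4 in cow at the 2-4 cell stage differed from that in the oocyte by -0.01 (95% counting interval -0.49 to 0.48). On the (RPM + 1) scale the ratio was then 48.5 times the oocyte ratio at the 8-16 cell stage, a change of 5.60 (5.16 to 6.04). It was 51.9 times at the morula and 11.7 times at the blastocyst. In pig the ratio of TBPL2 to TBP in the blastocyst library was 2.18 times the oocyte ratio. This change of 1.13 (0.158 to 2.096) rested on 8 TBPL2 reads and on adding 1 RPM to levels of 5.03 and 2.14 RPM. The declines from the reads, 4.38-fold (3.30 to 5.89) for TBP and 2.35-fold (0.960 to 6.28) for TBPL2, had overlapping intervals. A shift of this ratio was thus not resolved. The pig ratio of TBPL1 to TBP was 2.59 times that of the oocyte at the 2-4 cell stage, and 1.08 times in the blastocyst library.

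GTF2A1L encodes the germ cell form of the TFIIA large subunit. In pig it went from 211 RPM in the oocyte through 187 and 167 RPM to 13.3 in the morula (9.78 to 18.1) and 28.2 in the blastocyst. It thus fell at the step at which GTF2A1 reached its highest library. The pig ratio of GTF2A1L to GTF2A1 was 0.0278 times the oocyte ratio at the morula, a change of -5.17 (-5.64 to -4.70). In cow GTF2A1L stayed between 35.9 and 54.2 RPM up to the morula with 11.6 RPM in the blastocyst, while its ratio to GTF2A1 moved by -0.84 (-1.12 to -0.55) over the whole course. The pig GTF2A1L span overlaps another gene.

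TAF7L, the germ cell paralog of TAF7, had 0 reads in the cow oocyte, 2-4 cell and blastocyst libraries and 10.49 RPM (8.10 to 13.6) and 5.13 RPM at the 8-16 cell and morula stages. In pig it was at 6.51 RPM in the oocyte, 10.9 in 2-4 cell embryos, 4.11 in 8-16 cell embryos, 0 reads at the morula and 2 reads in the blastocyst. Both species had TAF7L reads at the 8-16 cell stage; the oocyte and 2-4 cell libraries had reads in pig and 0 in cow, and the morula library had reads in cow and 0 in pig. This difference was not tested.

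**Figure D3:**
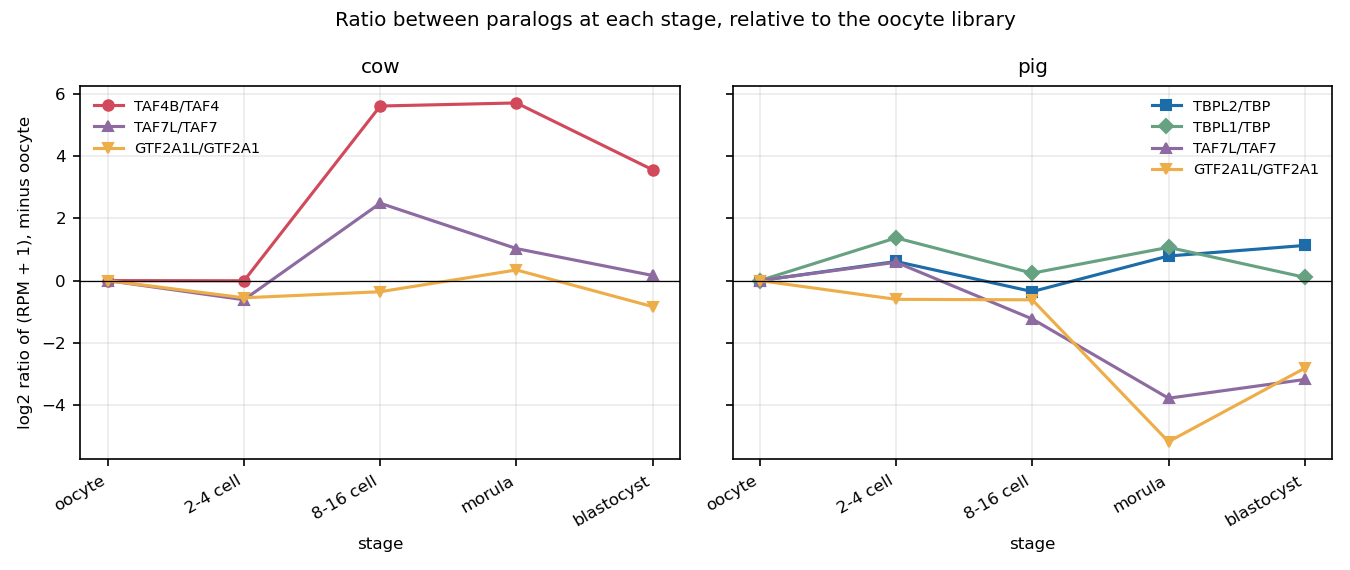
Log2 ratio of (RPM + 1) between 2 paralogs at each stage, minus the same ratio in the oocyte library, for cow (left) and pig (right), 1 library per point. The cow TAF4B to TAF4 ratio is 5.60 and 5.70 above the oocyte at the 8-16 cell and morula stages, and the pig GTF2A1L to GTF2A1 ratio is 5.17 below it at the morula.

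The rest of TFIID was followed with 12 further subunits, of which 10 were in the cow table and 9 in the pig table. From oocyte to blastocyst 3 of 9 compared rose (21.8% of all cow genes) and 2 fell (18.4%) in cow, with a median of -0.67. TAF8 (3.04 to 37.7 RPM), TAF10 (3.85 to 35.3 RPM) and TAF11 (1.83 to 17.1 RPM) rose, and TAF5, the scaffold of the complex, fell from 169 to 7.83 RPM, 21.6-fold (17.7 to 26.6). TAF9B, a paralog of the TFIID and SAGA subunit TAF9, fell from 36.3 to 0.494 RPM. In pig 1 of 9 rose (26.0% of all pig genes), TAF10 (1.18 to 23.1 RPM), and 2 fell (19.2%), TAF5 (102 to 11.3 RPM, 9.02-fold, 6.53 to 12.7) and TAF7L (12.1-fold, 2.99 to 106.6, on 2 blastocyst reads), with a median of -0.82. TAF5 and TAF10 thus moved the same way in both species, and these calls were made under 3 other scalings as well. The span of TAF10 overlaps ILK on the other strand in both tables. The pig spans of TAF5 and TAF11 and of GTF2H3, CCNH and SUPT7L below overlap other genes. So do the cow spans of GTF2A2, GTF2F2 and SUPT3H below. The reads of all these genes may not be theirs alone.

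Subunits of TFIID did not share a course. At the cow step at which TAF4B rose, TAF7L (at least 15.5-fold), TAF8, TAF11 (3.60 to 62.6 RPM) and TAF13 (24.8 to 127 RPM) rose as well, 4 of 10 compared (12.6% of all genes), and none fell (14.6%). At the cow step to the blastocyst TAF5, TAF7L (at least 24.2-fold), TAF9B and TAF13 fell and TAF10 rose, where 23.4% of all genes changed. In pig TAF11 rose (14.8 to 79.3 RPM) and TAF8 fell (40.7 to 2.33 RPM) from the 8-16 cell stage to the morula. TAF8 and TAF10 then rose and TAF5, TAF11 and TAF13 fell at the last pig step, where 27.6% of all genes changed; TAF11 and TAF13 were not called there with median-of-ratios scaling.

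The other general factors of RNA polymerase II comprised 16 genes, all in the cow table and 14 in the pig table. From oocyte to blastocyst 6 of 16 fell in cow (18.4% of all genes) and none rose (21.8%), with a median of -1.52. They were GTF2A1L, the small TFIIA subunit GTF2A2 (149.7 to 23.3 RPM), the TFIIF subunit GTF2F2, the TFIIH subunits GTF2H2 and GTF2H3, and MNAT1 of the CDK7 kinase (323 to 48.9 RPM). Scaling to non-mitochondrial gene reads left 3 lower (GTF2A2, GTF2H3 and MNAT1) and GTF2H1 higher. In pig 3 of 12 fell (19.2% of all genes), GTF2A1L, MNAT1 (217 to 39.4 RPM) and its partner CCNH (280 to 22.0 RPM), and 3 rose (26.0%), the TFIIH core subunits GTF2H1 (10.4 to 133 RPM), GTF2H3 and GTF2H5 (GTF2H5 was not called after quantile normalisation). GTF2H3 was therefore lower in cow (39.1 to 5.71 RPM) and higher in pig (1.18 to 28.4 RPM).

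Among 10 regulators of TBP and subunits of other TBP complexes, DR1, TAF1A and TAF1D changed in the same direction in both species over the whole course, and these calls were also made under 3 other scalings. DR1 belongs to NC2, which holds TBP on DNA and blocks TFIIA and TFIIB. It fell from 204 to 20.5 RPM in cow, 9.94-fold (8.71 to 11.4), and from 272 to 14.5 RPM in pig, 18.8-fold (14.3 to 25.2). TAF1A and TAF1D are subunits of SL1, the TBP complex of RNA polymerase I, and went opposite ways. TAF1A fell in cow (76.1 to 7.33 RPM) and in pig (332 to 34.9 RPM), whereas TAF1D rose in cow (3.25 to 92.7 RPM) and in pig (15.4 to 174 RPM). With 1 of 9 higher and 2 of 9 lower in cow, and 1 of 8 and 2 of 8 in pig, the list medians were 0.23 and -0.64. Of all genes 21.8% were higher and 18.4% lower in cow, and 26.0% and 19.2% in pig. The spans of TAF1A and TAF1D overlap other genes in pig.

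SAGA, a coactivator that shares several TAFs with TFIID, was represented by 12 genes. In cow 3 of 10 compared fell (18.4% of all genes), SUPT7L, SUPT20H (665 to 91.8 RPM) and TADA1 (244 to 6.06 RPM, 40.3-fold, 32.4 to 50.8), and in pig 2 of 8 (19.2%), SUPT7L and SUPT20H (866 to 189.6 RPM). None rose in either species, although SUPT3H was counted as higher in cow after scaling to non-mitochondrial gene reads. The list medians were -1.31 in cow and -1.25 in pig.

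**Figure D4:**
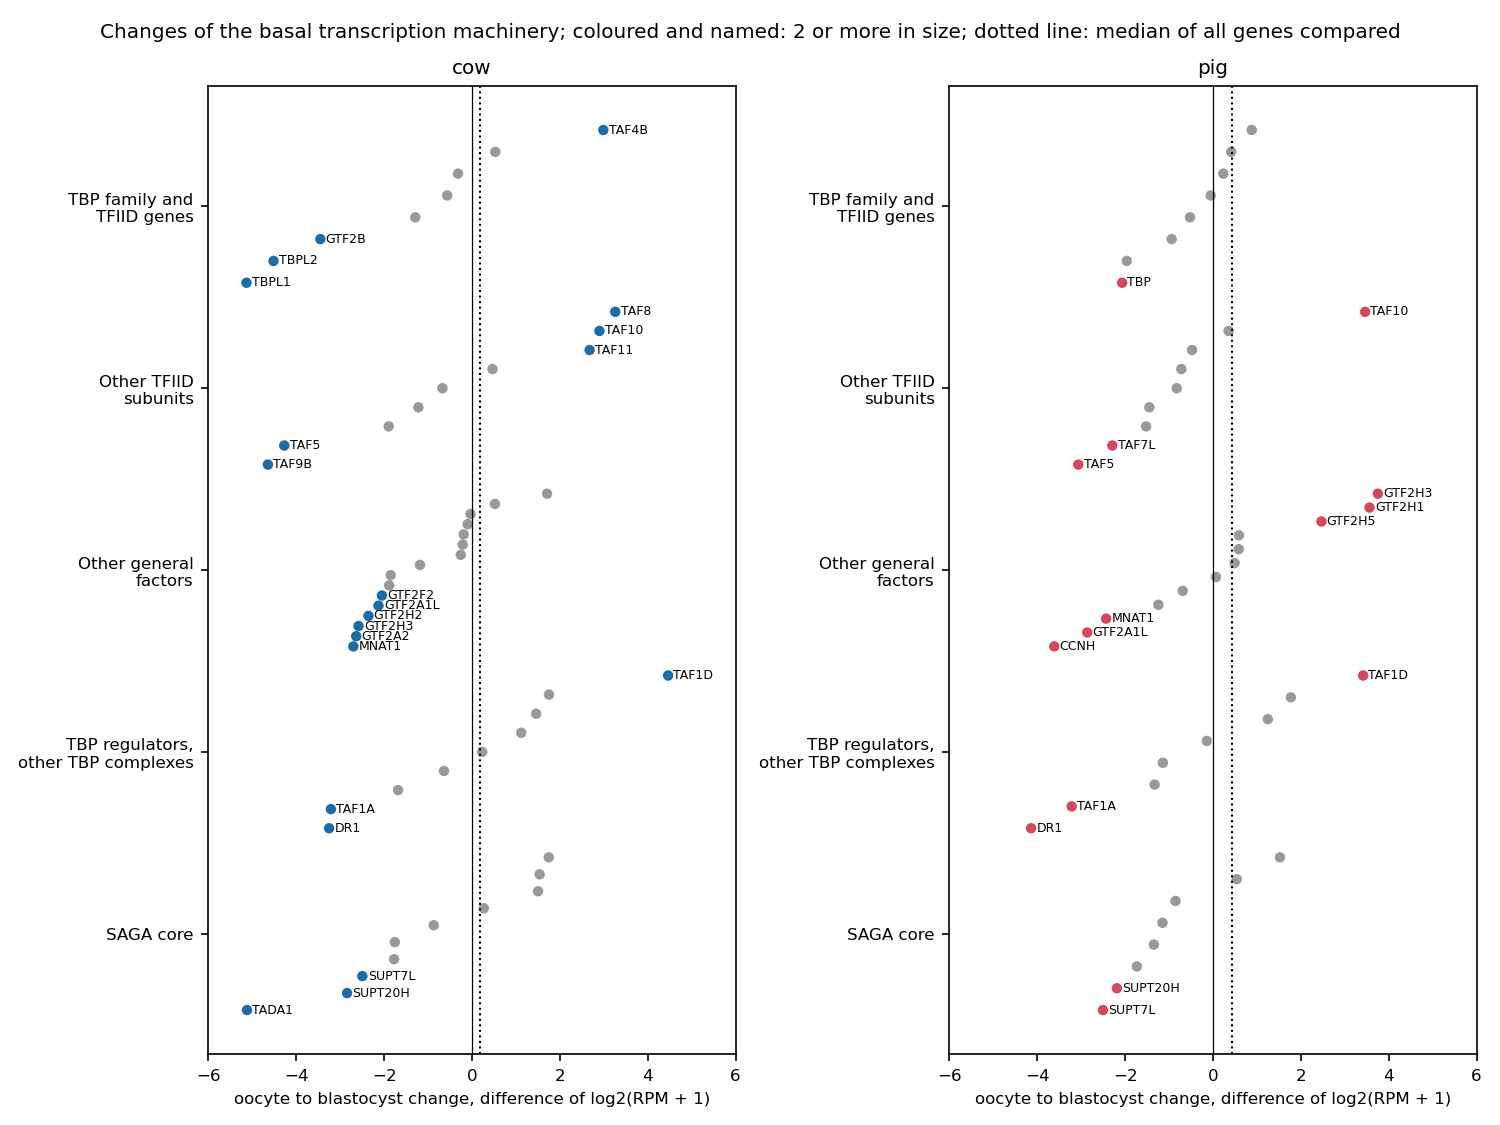
Oocyte to blastocyst change of each compared gene, as a difference of log2(RPM + 1), in 5 groups of the basal transcription machinery (rows), for cow (left) and pig (right). Each point is 1 gene, coloured and named where the change is 2 or more in size; the dotted line is the median of all genes compared, 0.18 in cow and 0.43 in pig. TAF5, DR1, TAF1A, SUPT7L, SUPT20H, MNAT1 and GTF2A1L lie on the lower side and TAF10 and TAF1D on the upper side in both panels.

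The genes with the most similar courses were found by the root mean square difference of log2(RPM + 1), each centred on the mean of its species, among symbols with at least 10 RPM in a library of each species. Over 10 libraries and 6278 candidates, TAF4B was closest to HK2 (0.26), YTHDF2 (0.34), RBMX (0.39), SELENOS (0.39) and NFYA (0.40), where the median gene was at 1.76. HK2, a hexokinase, went through 3.65, 9.46, 98.1, 108 and 59.2 RPM in cow and 48.9, 80.7, 230.3, 343 and 78.0 RPM in pig. YTHDF2, a reader of methylated adenosine in RNA, went through 4.87, 6.98, 181.5, 130 and 62.3 RPM in cow and 39.97, 24.9, 77.1, 138 and 23.1 RPM in pig. Both had their highest pig library at the morula.

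For TBPL2, over 10 libraries and 6279 candidates, the nearest included RGL1 (0.27), ZNF75D (0.37), CENPF (0.37) and ATP1B1 (0.39), the blastocyst marker that fell in cow, with a median of 1.68. RGL1 fell in cow (20.7 RPM in the oocyte, 0.353 RPM in the blastocyst) and stood at 137 and 86.6 RPM in the same pig libraries, so the likeness rests on a loss in cow and a shallow course in pig. TBP was compared over the 5 pig libraries alone, among 8253 candidates, and was nearest to CCDC115 (0.12), MIER2 (0.15), SPTB (0.16), PRIM2 (0.16) and ATG16L1 (0.16), with a median of 1.25.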

How the data were processed

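Total RNA was isolated with a kit for very small samples, converted to amplified cDNA and given library adapters with 8 PCR cycles, per the labels' protocols. The submitters' processing notes name Trim Galore 0.6.4, HISAT2 2.1.0 and the builds UMD3.1 (cow) and Sscrofa11.1 (pig). The counting method, annotation, and treatment of strand and duplicates are not given in the sources used here. Coordinates are those of the authors' tables. The deposited values are log2 RPM, with 1 table per species and 1 column per stage; the 2 tables were scaled separately. Between 99.94% and 99.99% of the values above the lowest were whole multiples of 1 read (tolerance 0.01), and 0 reads stood at 0.9 of a read. Reads were recovered from these steps.

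Changes are differences of log2(RPM + 1), for genes with at least 1 RPM in a library of the pair, called at 2 or more in size. Each group had 1 library, so there was no test and no replicate numbers. Intervals are Wilson, exact conditional binomial or, for paralog ratios, normal on the log scale (Python 3.11.15, SciPy 1.17.1). Reading of the tables and calling were tested on simulated data. The members and the gene lists were chosen with earlier results of these data known. Named genes are all members, the called genes of each list, and the 5 symbols nearest to TBPL2, TAF4B and TBP, of which 1 is not reported here. 4 wider comparisons (cow TAF3 and TAF4, pig TAF4B and TBPL1) were chosen after their values were seen. Alternatives changed the pseudocount, minimum, threshold or scaling. No sequences were used here.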

Additional observations from a re-analysis of the deposited data

Results flagged for a closer look

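7 results had opposite signs in cow and pig with both counting intervals clear of no change; each species had 1 library per stage, and the difference between species was not tested. From the 8-16 cell stage to the morula GTF2A1 changed by -0.22 in cow and 0.995 in pig, GTF2B by -0.11 and 1.30, TAF3 by 0.80 and -0.90, and TAF4B by -0.35 and 0.81. From the morula to the blastocyst TAF3 changed by -1.59 in cow and 0.58 in pig. TAF7 changed by -0.32 in cow and 0.88 in pig from oocyte to blastocyst, where the cow value was 0.07 after scaling to non-mitochondrial gene reads. TBPL1 changed by -0.23 in cow and 0.21 in pig from the oocyte to the 2-4 cell stage.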

How the results depend on the processing

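Of 80 recounts of called genes under 8 alternatives, 66 stayed within 1.5 times the main count and 14 did not. The shares of all genes called under these alternatives are not given here. The recounts therefore show dependence on the settings and cannot be read as an excess over other genes. A threshold of 1 gave 2 (cow) and 1 (pig) genes for the 8-16 cell to morula step, 5 and 3 for the last step, 1 and 1 for the first step, 1 in pig for the 2-4 to 8-16 cell step, and 2 in pig from oocyte to blastocyst. A pseudocount of 0.5 RPM gave 1 for the cow 8-16 cell to morula step (TBPL2, -2.07). A pseudocount of 5 RPM gave 1 for the cow 2-4 to 8-16 cell step and 0 for pig oocyte to blastocyst. Scaling to non-mitochondrial gene reads gave 0 and median-of-ratios scaling 2 for pig oocyte to blastocyst, and median-of-ratios scaling gave 0 for the last pig step. No called change of a gene changed sign. The sum over repeated rows was not run, since no gene had any. No paired analysis was possible because each group had 1 library and the labels carry no replicate numbers. Low counts limit pig TBPL2 and TAF7L, among others.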

Other observations

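BTAF1, which strips TBP from DNA, was at 39.4 RPM in the pig oocyte library, 24.6 in 2-4 cell embryos, 124 in 8-16 cell embryos, 529 in the morula and 137 in the blastocyst. It rose at both middle steps, by 2.29 and 2.08; the second was not called with median-of-ratios scaling. In cow BTAF1 was at 116, 84.0, 80.3, 221 and 74.2 RPM, with the morula library highest as well and no step called. BDP1, a subunit of the TBP complex of RNA polymerase III, was at 131 and 110.2 RPM in the cow oocyte and 2-4 cell libraries, rose to 589 in 8-16 cell embryos and was at 154 in the blastocyst. Its pig levels were 82.0, 135, 225.5, 563 and 196 RPM, with the morula library highest. TAF1D rose at the cow step to the 8-16 cell stage, from 4 reads (0.901 RPM) to 269.7 RPM, a change of 7.15.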
